A study of Mus musculus with 8 samples.

Results

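Pools A2 and B2 are the 2 cell pools that carry the ERF-KO label in a study of mouse embryonic stem cells, and they were compared with each other here. Replicate 1 of each labelled knockout group came from pool A2 and replicate 2 from pool B2, per the titles and source names, which gave 4 of the 8 arrays of the series: A2 untreated, A2 with OHT, B2 untreated and B2 with OHT. The other 4 arrays hold the ERF-WT pools A1 and B1 under the same treatments. All 4 pools share a genotype that includes H-Ras-/-;N-Ras-/- and RERT ert/ert, in which 4-hydroxytamoxifen (OHT), given here for at least 2 days, is meant to induce a further deletion. Per the labels every sample mixes 2 clones, kept on gelatin with serum and LIF, and they call A2 and B2 biological replicates. The comparison therefore asks how far apart the replicates of the labelled knockout lay before any effect of OHT or ERF is read from them.

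ERF belongs to the ETS transcription factors and acts as a repressor until phosphorylation by the kinase ERK sends it out of the nucleus. Embryonic stem cells hold a network of naive pluripotency factors such as Nanog, Esrrb and Prdm14, and ERK signalling moves them from that state towards the epiblast. Cultures also contain rare cells in a transient 2-cell-like state, in which genes of the cleavage-stage embryo such as the Zscan4 cluster are switched on.

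Values are log2 signals relative to the 75th percentile of each array, and a level can be compared between arrays but not between genes. Between 54.0 and 63.6% of the spots of an array were well above background and 0 were saturated, and the number of arrays limits the precision. The A2 array with OHT had 3.09% and the B2 array with OHT 1.13% of its spots in dark areas, which were left out. All 4 labelled knockout arrays and both A1 arrays lay on 1 slide, and both B1 arrays on another, and pool B1 cannot be told apart from its slide. Each pool was 1 mix of clones measured on 2 arrays. The test (limma, treatment as a block) thus measures the pool difference against how far such differences varied between untreated and OHT pairs, with a spread pooled over both genotypes and moderated over genes, and says nothing about other clones. A gene is called when its limma p, adjusted by Benjamini-Hochberg over 14527 genes, was below 0.05.

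Erf itself was lower in A2. Its signal was 3.26 untreated and 3.63 with OHT in A2, against 5.43 and 5.09 in B2. The A1 arrays read 4.91 and 4.79 and the B1 arrays 5.22 and 4.73, so the B2 values lay within or above the range of the wild type pools and both A2 values below it. The difference A2 minus B2 was -1.81 ± 0.21 (SE, n = 2 pairs, limma adjusted p 0.00348), which is 3.51-fold. The same difference between the wild type pools was -0.13, and the pool differences themselves differed by -1.68 ± 0.29 (adjusted p 0.027). The position of the Erf probe against the deleted part was not analysed here, so its level checks the label of neither pool.

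Hras, a RAS gene that the labels give as deleted in all pools, read 2.67 and 2.49 in A2 and 2.93 and 2.75 in B2 with its brightest probe, a difference of -0.26 ± 0.08 (limma adjusted p 0.0225) that was no longer called with quantile normalization (adjusted p 0.108). Its other probe was dim, at -5.38 and -5.63 in A2 and -5.45 and -5.72 in B2. Where the Hras and Nras probes lie against the deleted parts was not analysed here, so their levels check no label. Nras differed by -0.11 ± 0.09 (adjusted p 0.374). Of the 20 tested genes nearest Erf on chromosome 7, 10 on each side, 1 was higher and 9 were lower in A2 (45.0%, against 31.1% of all genes), 5 of them at least 2-fold, with a median of -0.34. Ceacam2, which encodes a cell adhesion protein, had the largest of these differences, -3.07 ± 0.24 (limma adjusted p 6.52e-05).

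Markers of embryonic stem cells were well above background on all 8 arrays for the 9 of 10 that were tested, while Zfp42 was not tested. Of the 9, 6 were called lower in A2, 1 higher and 2 were not called. Of all tested genes 31.1% were lower and 19.4% higher. Pou5f1, which encodes the core pluripotency factor OCT4, read 3.69 and 3.73 in A2 and 5.29 and 5.14 in B2. Sox2 was lower in A2 by a smaller amount (-0.57 ± 0.08, limma adjusted p 0.000678), and Lin28a was higher by 0.22 ± 0.07 (adjusted p 0.0388). Dppa5a and Sall4 were the uncalled markers, at 0.09 ± 0.09 and -0.27 ± 0.10 (adjusted p 0.445 and 0.0502).

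Across the genome 7337 genes (50.5% of those tested) were called between A2 and B2, 2815 higher in A2 (19.4%) and 4522 lower (31.1%). At least 2-fold differences were called for 2119 genes (14.6%), of which 1165 were higher (8.02%) and 954 lower (6.57%). In 264 of the 2119, 1 pool was not well above background on either array. These were tested through the other pool alone, which favours a call towards that pool. All 2119 had the same sign in both treatments, and 1600 of them were at least 2-fold in each. The call favours a shared sign, because it weighs the mean difference against how far the untreated and OHT pairs disagreed. All 7337 called genes shared their sign too, so this agreement is no separate check. Over all tested genes, called or not, the untreated and OHT differences had a Pearson correlation of 0.74. At least 16-fold differences were measured for 50 higher and 4 lower genes, and with genes below background in 1 pool taken at their bound 38 and 1 of them stayed at least 16-fold. The median over all genes was -0.12, and the higher share of the calls was 38.4%, or 47.3% with quantile normalization.

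**Figure D1:**
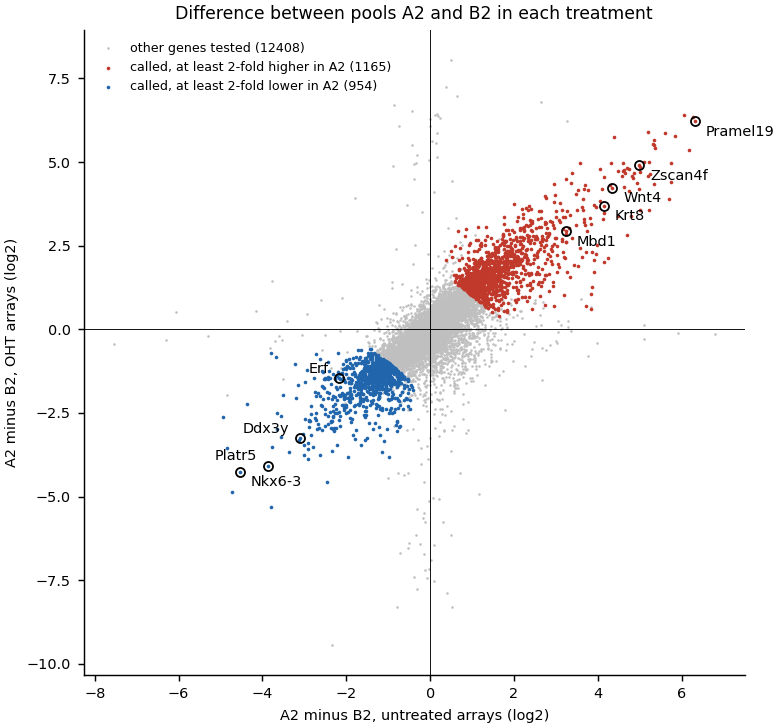
Each point is 1 of 14527 genes, with the log2 difference A2 minus B2 between the untreated arrays on the x axis and between the arrays with OHT on the y axis. Red and blue points are the 1165 and 954 genes called at least 2-fold higher or lower in A2. The vertical spray of grey points near 0 on the x axis holds genes that differed in the OHT pair alone: 57 genes were below 1 untreated and beyond 4 with OHT, 0 of them called. With the dark areas widened by 5 spots, 16 of these 57 were still tested, while 13849 genes were tested in all, against 14527 without widening.

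The wild type pools gave a scale for these counts. Between A1 and B1, 4728 genes (32.5%) were called, 844 of them at least 2-fold (5.81%). For each pair of pools the median absolute difference over genes was taken from the mean of the pool's 2 arrays. It was 0.39 between A2 and B2, 0.28 between A1 and B1, 0.27 between A2 and A1, and 0.15 between B2 and B1. The smallest distance thus lay between pools of opposite ERF label on different slides, with 2.98% of genes at least 2-fold apart, against 16.5% between A2 and B2. Of 2105 genes called at least 2-fold between A2 and B2 and measured in all pools, B1 was nearer B2 in 2006 (95.3%). A1 was nearer A2 in 930 (44.2%) and nearer B2 in the other 1175. The 2119 genes therefore held both differences that ran with the letter of the pool and differences in which A2 stood apart from the other 3 pools. In 983 of the 2119 (46.4%) the A2 to B2 difference also differed from the A1 to B1 difference by limma, a comparison that carries the slide of B1 and that called 3331 genes in all (22.9%), 1511 of them with the greater value in the labelled knockout (10.4%). The 2119 genes were picked by A2 minus B2, a term of this comparison, which favours a call among them. This comparison called 0 genes with plain empirical Bayes and 10 without the treatment block, which bears on every difference of pool differences given here.

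Genes of the 2-cell-like state were the most extreme group. Of 16 tested list members 13 were higher in A2, all at least 2-fold, 1 was lower and 2 were not called. The list's median was 4.67 against -0.12 for all genes, of which 19.4% were higher and 31.1% lower. Zscan4f, which encodes a zinc finger protein of the cleavage-stage embryo, read 6.37 and 5.98 in A2 and 1.39 and 1.08 in B2. That is a difference of 4.94 ± 0.07 (SE, n = 2 pairs, limma adjusted p 3.3e-08), or 30.7-fold. Pool A1 read 6.42 and 6.23, the level of A2, and B1 read 2.61 and 2.33, so both A pools were high and both B pools low. Tcstv3, a 2-cell gene that takes part in telomere elongation in stem cells, read 1.22 and 0.85 in A2 and -4.13 and -4.67 in B2, with A1 again at 1.76 and 1.26. Gm4340 and Tdpoz3 were higher by 5.05 ± 0.08 and 5.36 ± 0.37 (adjusted p 3.3e-08 and 3.75e-05). The Tdpoz3 probe was not well above background in B2, which makes the difference at least 10.6-fold with this processing. Tdpoz3, and Tcstv3 with 1 B2 array not well above background, were tested through A2 alone, which favours a higher call. Zscan4f and Gm4340 were well above background on all arrays. How many other members entered through A2 alone was not counted.

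The exceptions were Sp110, lower by 0.27 on the log2 scale, and Eif1a and Zfp352, at -0.08 and -0.03. In all 13 higher members the mean of A1 lay nearer A2 than B2: the list's median was -0.23 for A2 minus A1 and 1.01 for B1 minus B2. In a bulk sample more cells in this state and more RNA per such cell cannot be told apart. Arg2, Dux, Gm5662 and Zscan4d of the list were not tested.

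Several of these genes belong to families with nearly identical copies, so a probe may read several members at once and values of single members are uncertain. The promoters of 2 Zscan4 genes and 2 Pramel genes are printed to show how alike the copies are, from 250 bases before to 50 after the annotated start (RefSeq, build GRCm38.p6). Capitals mark the letters TATAAA.
Zscan4c, chr7:11005495-11005794, plus strand: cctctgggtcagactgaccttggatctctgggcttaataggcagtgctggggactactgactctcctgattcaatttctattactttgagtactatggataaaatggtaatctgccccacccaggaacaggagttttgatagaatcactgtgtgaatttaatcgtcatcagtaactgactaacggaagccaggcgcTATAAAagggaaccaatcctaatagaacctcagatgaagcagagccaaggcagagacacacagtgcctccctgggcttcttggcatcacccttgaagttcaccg
Zscan4f, chr7:11397665-11397964, plus strand: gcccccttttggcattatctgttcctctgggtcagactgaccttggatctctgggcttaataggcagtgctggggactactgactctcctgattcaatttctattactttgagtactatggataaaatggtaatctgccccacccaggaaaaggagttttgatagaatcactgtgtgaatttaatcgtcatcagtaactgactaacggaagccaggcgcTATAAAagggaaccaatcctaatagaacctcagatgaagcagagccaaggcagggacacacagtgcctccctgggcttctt
Pramel39, chr5:94306747-94307046, minus strand: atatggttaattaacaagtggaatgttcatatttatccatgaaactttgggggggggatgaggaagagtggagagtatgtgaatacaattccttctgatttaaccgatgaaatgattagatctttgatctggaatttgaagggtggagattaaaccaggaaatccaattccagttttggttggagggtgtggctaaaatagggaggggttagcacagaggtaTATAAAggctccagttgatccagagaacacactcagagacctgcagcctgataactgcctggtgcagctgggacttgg
Pramel50, chr5:95736124-95736423, minus strand: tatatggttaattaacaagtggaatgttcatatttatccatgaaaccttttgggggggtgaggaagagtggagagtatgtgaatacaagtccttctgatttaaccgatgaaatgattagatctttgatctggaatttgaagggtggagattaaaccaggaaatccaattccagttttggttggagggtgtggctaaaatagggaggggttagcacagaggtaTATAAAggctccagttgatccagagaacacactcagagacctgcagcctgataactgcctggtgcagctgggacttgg
Over the aligned bases Zscan4c and Zscan4f shared 99.3% and Pramel39 and Pramel50 98.7%, while Zscan4b, not printed, shared 95.3 and 95.7% with Zscan4c and Zscan4f.

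The 12 genes with the largest differences towards A2 were 4 Pramel genes, the BTB domain genes Spopfm2 and Tdpoz3, Tcstv3, 4 uncharacterised genes (AU019990, Gm16367, Gm38423, BB287469) and Mal. Pramel19 and Pramel50 belong to the PRAME-like family of leucine-rich repeat proteins, expressed mainly in germ cells and early embryos. Pramel19 read 2.19 and 1.98 in A2 and -4.11 and -4.24 in B2 (6.26 ± 0.14, limma adjusted p 1.28e-07, 76.9-fold). Pramel39 and Pramel50 were higher by 5.74 ± 0.11 and 5.81 ± 0.13 (adjusted p 4.74e-08 and 1.12e-07). Spopfm2 was not well above background in B2 and was at least 48.1-fold higher in A2. In 11 of the 12 the mean of A1 lay nearer A2 than B2. The exception was Mal, which encodes a membrane traffic protein of polarised epithelia. It read 0.03 and 0.07 in A2, -2.70 and -2.85 in A1, -5.32 and -5.60 in B2 and -5.59 and -4.11 in B1. With normexp background correction all 12 stayed called. The 6 that were not well above background in B2 then differed less: Tdpoz3 by 1.69, Pramel21 by 1.96, AU019990 by 2.56, Mal by 2.71, Gm16367 by 2.82 and Spopfm2 by 3.11, and Tcstv3 by 3.44.

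**Figure D2:**
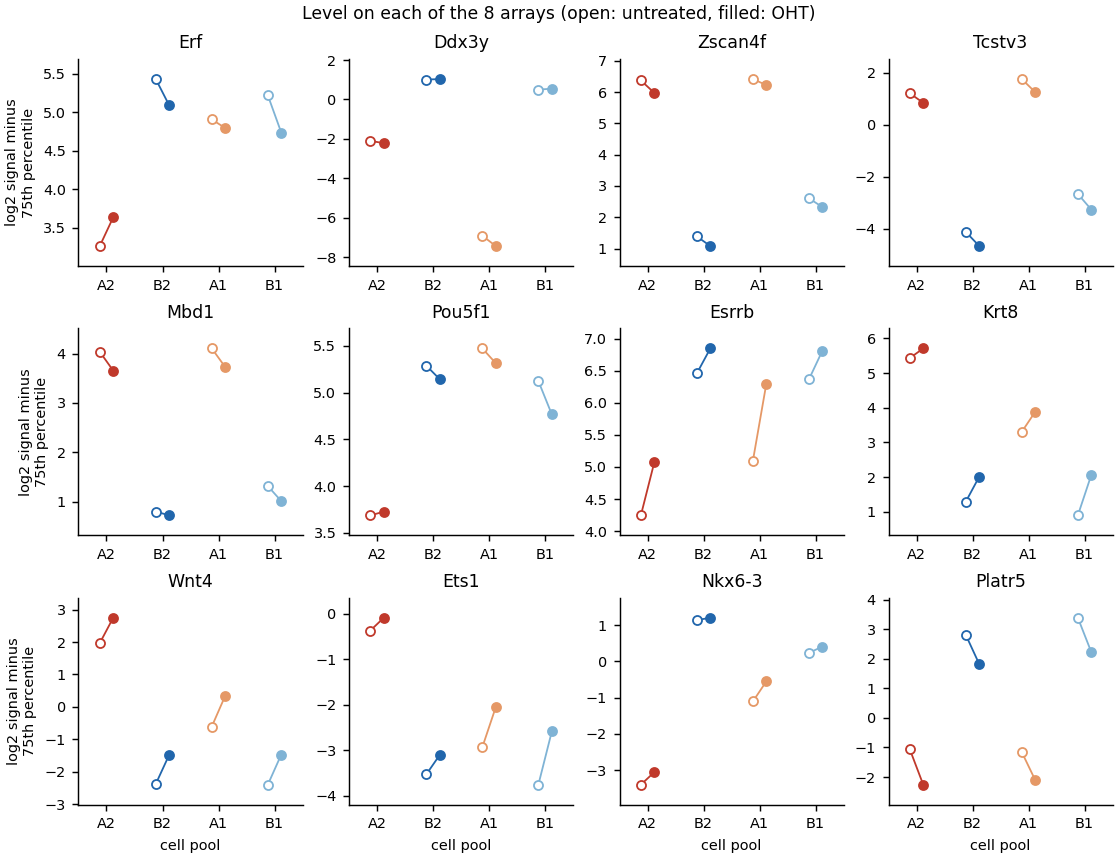
Log2 signal relative to the array's 75th percentile for 12 genes on the 8 arrays, with open points for untreated and filled points for OHT arrays of each pool. Erf (3.26 and 3.63) and Pou5f1 (3.69 and 3.73) were low in A2 alone, Zscan4f, Tcstv3 and Mbd1 were high in both A pools, and Platr5 was low in both.

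Naive pluripotency genes were lower in A2. Of 25 tested members 18 were lower, 11 of them at least 2-fold, 0 were higher and 7 were not called, with a median of -0.92. Over all genes 31.1% were lower and 19.4% higher. Tcl1, which encodes a coactivator of AKT, read 1.86 and 2.11 in A2 and 4.21 and 4.84 in B2, with A1 at 3.70 and 4.60 and B1 at 4.11 and 5.22. Its difference was -2.54 ± 0.10 (limma adjusted p 5.7e-06). Nr0b1, a nuclear receptor of the pluripotency network, differed by -2.08 ± 0.09 (adjusted p 6.55e-06), and Esrrb, another one, by -1.99 ± 0.25 (adjusted p 0.00949). Prdm14, a repressor that guards the naive state, differed by -2.15 ± 0.14, a call that was lost without the treatment block (adjusted p 0.239). Its signal was higher with OHT in every pool. Nanog read 4.07 and 5.49 in A2 against 5.65 and 6.45 in B2 (-1.27 ± 0.16, adjusted p 0.00265). The wild type pools differed little by comparison: the list's median was -0.12 for A1 minus B1, -0.80 for A2 minus A1 and -0.05 for B1 minus B2. For 13 members the pool difference of the labelled knockout was below that of the wild type by limma, and for 0 above it.

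Core pluripotency genes followed with 12 of 18 lower, 3 higher and a median of -0.56. The Pou5f1 difference was -1.51 ± 0.08 (limma adjusted p 1.33e-05). Triml2 and Eras, a constitutively active RAS-like GTPase of embryonic stem cells, differed by -1.70 ± 0.13 and -1.34 ± 0.11 (adjusted p 0.000124 and 6.53e-05). Dnmt3b, Lin28a and Trim71 were the 3 higher members, by 0.22 to 0.32.

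Keratins of simple epithelia and several signalling ligands were higher in A2. Krt8 read 5.43 and 5.71 in A2 and 1.29 and 2.01 in B2, a difference of 3.92 ± 0.17 (limma adjusted p 5.33e-05, 15.1-fold). Pool A1 lay between them at 3.31 and 3.88, and B1 at 0.90 and 2.06 lay near B2. Its partner Krt18 differed by 3.80 ± 0.12 (adjusted p 7.41e-06), Krt19 by 3.29 ± 0.13 and Krt7 by 3.04 ± 0.14. These keratins stand in the trophoblast list, in which 13 of 18 tested members were higher, 10 at least 2-fold, and 1 was lower, with a median of 1.26. Hand1 and Gata3, transcription factors of trophoblast and mesoderm, were higher by 2.82 ± 0.19 and 2.07 ± 0.17 (adjusted p 3e-05 and 7.24e-05). Elf5, Psg21 and Tpbpa of the list were below background on all labelled knockout arrays, and Eomes and Cdx2 were higher by 0.92 and 1.44. Among formative and primed epiblast genes 13 of 29 were higher and 4 lower (median 0.25), against 19.4% and 31.1% of all genes. Krt8 and Krt18 are counted there too, and Fgf5, the ligand that marks the epiblast, was higher by 2.52 ± 0.21, a call lost without the treatment block (adjusted p 0.1).

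WNT genes had 14 of 28 members higher, 13 at least 2-fold, and 3 lower (median 1.13), against 19.4% higher and 31.1% lower of all genes. Wnt4 read 1.97 and 2.75 in A2 and -2.38 and -1.48 in B2, with A1 at -0.61 and 0.34 and B1 at -2.40 and -1.47. Its difference was 4.29 ± 0.12 (limma adjusted p 4.26e-07, 19.5-fold). The ligands Wnt3 and Wnt6 were higher by 3.54 ± 0.19 and 2.95 ± 0.37 (adjusted p 1.33e-05 and 0.00266). Of the pathway's feedback targets Axin2 and Nkd1 were higher by 1.91 and 1.88, and Notum was lower by 1.01 on the log2 scale. Of 27 TGF-beta, BMP and Nodal genes 14 were higher and 6 lower (median 0.64): Tgfb2 by 2.85 ± 0.16, the BMP target Id2 by 2.16 ± 0.12 and the ligand Bmp2 by 2.10 ± 0.23, whereas the activin subunit Inhbb was at -2.63 ± 0.32 (adjusted p 1.68e-05, 1.68e-05, 0.000275 and 0.00443). In the mesoderm and primitive streak list 10 of 16 were higher and 4 lower (median 0.94), with Wnt3 and Hand1 among the higher and Meox1, a somite factor, at -2.69 ± 0.23 among the lower. The summed signal of this list ran the other way, at 4.12 and 4.20 in A2 against 5.36 and 4.66 in B2. The Meox1 call was lost without the treatment block (adjusted p 0.0754).

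Targets of RAS and ERK differed in both directions and were more often higher in A2. Over all genes 19.4% were higher and 31.1% lower, with a median of -0.12. Of 33 tested members 13 were higher, 11 at least 2-fold, 6 were lower and 14 were not called (median 0.19). Jun, an AP-1 subunit induced within minutes of stimulation, read 3.46 and 3.99 in A2 and 0.99 and 1.40 in B2, a difference of 2.53 ± 0.09 (limma adjusted p 2.75e-06). Fos, its partner, was higher by 2.22 ± 0.27 (adjusted p 0.000464). Dusp5 and Egr2 were also higher, by 1.80 ± 0.39 and 1.55 ± 0.36 (limma adjusted p 0.00657 and 0.0089). Several feedback regulators of ERK, named here after their values were seen, were not called. Dusp6, the ERK phosphatase, read 5.12 untreated and 3.09 with OHT in A2 and 5.03 and 2.92 in B2 (0.13 ± 0.07, adjusted p 0.175). Dusp4, Spry2 and the ETS factor Etv1 differed by 0.18 ± 0.12, -0.05 ± 0.12 and -0.05 ± 0.08 (adjusted p 0.241, 0.735 and 0.642), which does not show that they are equal. After OHT 24 of the 33 were lower in A2 and 26 in B2, with median changes of -0.45 and -0.52, from 1 array a side and with no test.

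Within the ETS family 3 of 18 were higher and 6 lower (median -0.09, which turned positive in some settings). These shares lay near the 19.4% higher and 31.1% lower of all genes. Ets1 read -0.38 and -0.09 in A2 and -3.53 and -3.11 in B2. The difference was 3.09 ± 0.19 (limma adjusted p 2.38e-05), and it was not called when a local median was subtracted from every spot in place of leaving dark areas out (adjusted p 0.103). Elf1 was higher by 1.38 ± 0.14 (adjusted p 0.000201). Etv4, which responds to FGF and ERK, was lower in both A pools: A2 read 4.25 and 2.56, A1 4.46 and 2.28, B2 5.90 and 3.83 and B1 5.86 and 3.88. Its difference of -1.46 ± 0.10 (adjusted p 4.41e-05) was lost without the treatment block (adjusted p 0.435). In the core of the pathway 5 of 24 genes were higher and 7 lower (median -0.09), also near the shares of all genes. The RAS relative Mras was at -2.29 ± 0.37 (limma adjusted p 0.0217), which missed the threshold without the untreated A2 array.

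**Figure D3:**
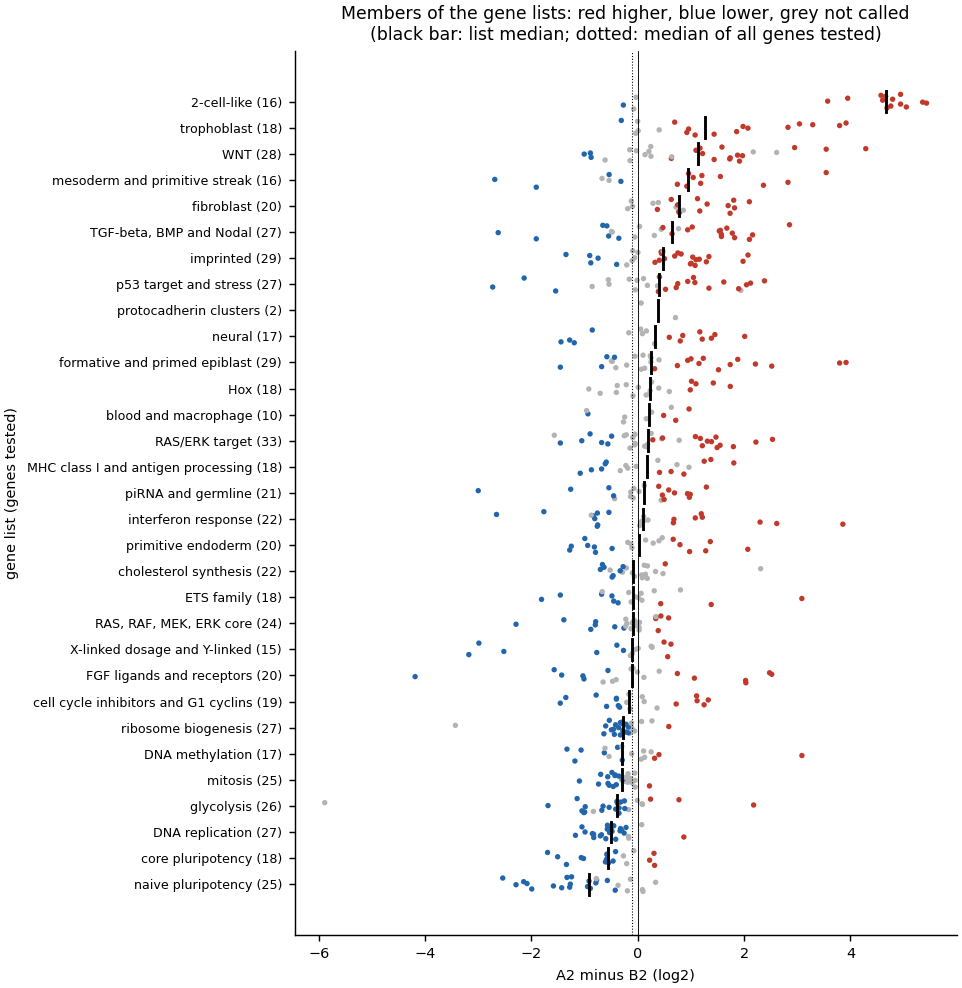
Log2 difference A2 minus B2 of every tested member of 31 gene lists, with black bars at the list medians and a dotted line at the median of all genes, -0.12. The 2-cell-like list (median 4.67) stands at the top and naive pluripotency (-0.92) at the bottom, and far grey points such as Pfkp and Polr1b differed mainly in the OHT pair.

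Markers of other cell types were measured beside these groups, and their part in the differences was not tested. Fibroblast genes were higher in A2 for 13 of 20 tested members and lower for 0 (median 0.78), and the summed signal of the list was 8.14 and 8.72 in A2, 6.65 and 7.01 in B2 and 6.65 to 7.17 in the wild type pools. Tagln and Acta2 made up 75.4 and 71.8% of the A2 sums, and without them the sums were 6.11 and 6.89 in A2 and 5.51 and 5.79 in B2. Tagln and Acta2, contractile genes that stem cells that spread or differentiate also express, were higher by 2.10 ± 0.11 and 1.74 ± 0.22 (limma adjusted p 3.69e-05 and 0.00574). Dcn, not well above background in B2, and Timp3 were higher by 1.82 ± 0.31 and 1.80 ± 0.19 (limma adjusted p 0.00225 and 0.000997). The fibroblast surface markers Thy1 and Fap differed by -0.12 ± 0.27 and -0.10 ± 0.43 (limma adjusted p 0.743 and 0.86). They are among the 3 tested members of the list below 0. Lum was below background on all labelled knockout arrays. Primitive endoderm genes were split, 6 of 20 higher and 7 lower (median 0.02, of changing sign over settings), with Foxa2 at 2.07 ± 0.37, Cubn at -1.28 ± 0.12, and Afp and Ttr below background. Neural genes had 8 of 17 higher and 4 lower (median 0.32), and blood genes 3 of 10 higher and 1 lower, with Hbb-bt below background. For comparison, 19.4% of all genes were higher and 31.1% lower. The summed signals of the neural list were 5.46 and 5.34 in A2 and 5.48 and 5.52 in B2. Those of the blood list were 3.91 and 4.11 in A2 and 3.56 and 3.71 in B2. Primitive endoderm sums were 8.23 and 8.49 in A2 and 7.79 and 7.96 in B2. The summed signals of the trophoblast list were 8.34 and 8.49 in A2, 5.42 and 5.68 in B2 and 5.19 and 5.99 in B1, with both A1 arrays above the B pools and below A2. Krt8 and Krt18 made up 86.8 and 86.3% of the A2 sums and 41.8 and 47.8% of those of B2. Without this pair the sums were 5.42 and 5.62 in A2, 4.64 and 4.75 in B2, 4.77 and 5.52 in A1 and 4.51 and 5.22 in B1, so that A1 with OHT lay within the range of the A2 arrays.

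Genes of growth and division were lower in A2 by small amounts. The share of all genes called lower was 31.1%, and that called higher 19.4%. DNA replication genes were lower for 23 of 27 members and higher for 1 (median -0.51), mitosis genes for 13 of 25 with 1 higher (median -0.30), ribosome biogenesis genes for 18 of 27 with 1 higher (median -0.28) and glycolysis genes for 17 of 26 with 3 higher (median -0.39). Over the alternative settings these medians ran from -0.56 to -0.30, -0.39 to -0.17, -0.30 to -0.06 and -0.45 to -0.20, in that order. The median of all genes was -0.12, or -0.03 with quantile normalization. The replication factors Gins2 and Mcm5 differed by -1.17 ± 0.08 and -0.99 ± 0.09 (limma adjusted p 3.97e-05 and 0.00016). Both lie on chromosome 8, whose genes were lower as a whole. Pfkfb3, which raises the flux of glycolysis, was higher by 2.18 ± 0.15 (adjusted p 4.47e-05), and Cdkn1b, the cyclin-dependent kinase inhibitor p27, was lower by 1.46 on the log2 scale (adjusted p 2.3e-05) and lies on chromosome 6, whose genes were lower too.

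Among DNA methylation genes 3 of 17 were higher and 6 lower (median -0.29), near the 19.4% and 31.1% of all genes. The demethylating dioxygenases Tet2 and Tet1 were lower by 1.33 and 1.07 on the log2 scale (limma adjusted p 0.000202 and 3.95e-05). The brightest probe of Mbd1, a methyl-CpG binding protein, read 4.04 and 3.65 in A2 and 4.10 and 3.73 in A1, against 0.80 and 0.72 in B2 and 1.31 and 1.01 in B1. That difference of 3.09 ± 0.10 (adjusted p 9.79e-07) was not shared by the other 2 Mbd1 probes, at 0.06 and 0.41. Imprinted genes were higher for 18 of 29 members and lower for 5 (median 0.48), with Peg3 at 2.07 ± 0.13 and Igf2 at 1.98 ± 0.23 (adjusted p 2.38e-05 and 0.000321).

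Several genes were much lower in A2, described here by example. Nkx6-3, a homeobox gene of the stomach, read -3.40 and -3.05 in A2 and 1.14 and 1.21 in B2, with A1 at -1.10 and -0.55 and B1 at 0.24 and 0.41 (-4.40 ± 0.15, limma adjusted p 1.43e-06, 21.1-fold). Platr5, a long noncoding RNA of pluripotent cells, read -1.06 and -2.26 in A2 and 2.80 and 1.82 in B2, and A1 lay with A2 at -1.16 and -2.10 (-3.97 ± 0.12, adjusted p 6.32e-07). Filip1 and Defb29 were not well above background in A2 and were at least 7.75-fold and 11.4-fold lower there. The hormone gene Fgf21 was at least 6.23-fold lower in A2 and was measured in each of the other pools. Stra8, which opens meiosis in germ cells, read -0.05 and -0.21 in A2, 2.78 and 2.96 in B2, 1.94 and 1.62 in A1 and 3.09 and 3.54 in B1, which made it 8.01-fold lower in A2 than in B2 (adjusted p 0.000194).

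Y-linked genes were lower in A2. The 6 tested genes on the Y chromosome were all called lower in A2, with a median of -3.08. Ddx3y, an RNA helicase, read -2.10 and -2.21 in A2, 1.01 and 1.03 in B2 and 0.50 and 0.55 in B1. In A1 it was not well above background, at -6.91 and -7.43. The difference A2 minus B2 was -3.18 ± 0.19 (limma adjusted p 2.36e-05, 9.05-fold). Eif2s3y, a translation initiation subunit, showed the same order, with 0.57 and 0.55 in A2, 3.01 and 3.15 in B2, 2.66 and 2.88 in B1 and signals not well above background in A1. For both genes the A2 signal lay between those of A1 and the B pools. Xist was below background on all labelled knockout arrays, and the 548 tested genes of the X chromosome had a median of 0.11.

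Genes on chromosomes 6 and 8 were lower in A2 as a group. On chromosome 6 the median of 695 genes was -0.48, 76.0% lay below 0 and 383 were called lower. On chromosome 8 the median of 769 genes was -0.52, 80.0% lay below 0 and 462 were called lower. Lower genes named above include Nanog, Stra8 and Cdkn1b on chromosome 6 and Triml2, Nkx6-3, Gins2 and Mcm5 on chromosome 8. The medians of the other autosomes and the X chromosome ran from -0.15 to 0.11, with 28.1% of their genes called lower. Both treatments gave the same picture: -0.48 untreated and -0.51 with OHT on chromosome 6, and -0.50 and -0.55 on chromosome 8. The 2 chromosomes differed in how the wild type pool A1 stood. On chromosome 6 its median was at the level of A2 (A1 minus B1 -0.48, A2 minus A1 -0.04), while on chromosome 8 it lay between the labelled knockout pools (A1 minus B1 -0.30, A2 minus A1 -0.23). Pools B1 and B2 differed by 0.03 and -0.003 there.

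**Figure D4:**
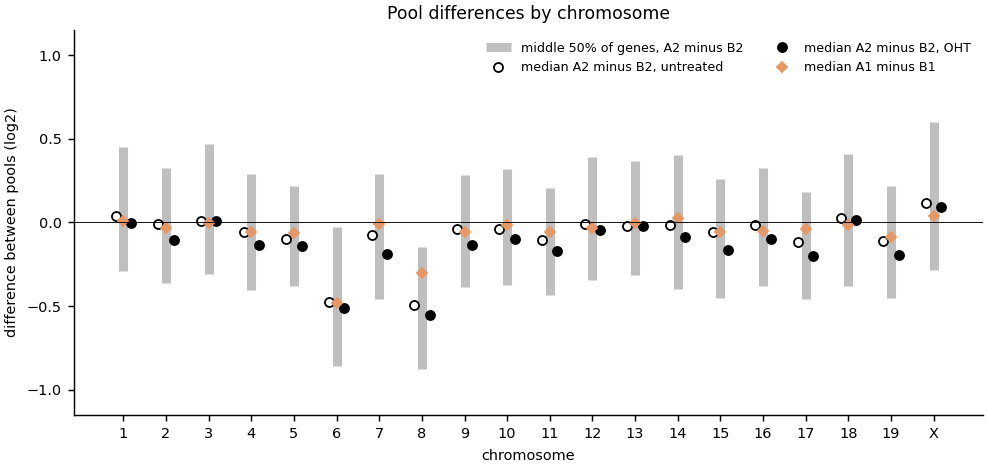
Median log2 difference between pools by chromosome: A2 minus B2 untreated (open) and with OHT (filled), A1 minus B1 (diamonds), and the middle 50% of genes for A2 minus B2 (grey bars). Chromosomes 6 and 8 lie apart in both pool comparisons, and the 6 genes of the Y chromosome (median -3.08) are not drawn.

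The lower values ran along most of both chromosomes. Of the windows of 21 neighbouring tested genes, 346 of 675 on chromosome 6 (51.3%) and 476 of 749 on chromosome 8 (63.6%) had a median below -0.4 in both treatments. On all other chromosomes 116 of 12696 windows were that low and 165 that high. The longest such run, on chromosome 8, had 127 windows centred on the genes from Cmtr2 to Agt, which took in 147 genes, 98 of them called lower and 8 higher, with a median of -0.69. It included Necab2, a calcium-binding protein (-2.06 ± 0.12, limma adjusted p 2.11e-05), and Car5a, a mitochondrial carbonic anhydrase (-2.38 ± 0.24, adjusted p 0.000178). On chromosome 6 the longest run had 46 windows centred on the genes from Slc2a3 to Vwf and took in 66 genes (median -0.61), where Vwf, the von Willebrand clotting factor, differed by -2.44 ± 0.15 (adjusted p 2.36e-05). Neighbouring genes share their place and are not independent, so these medians carry no test.

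**Figure D5:**
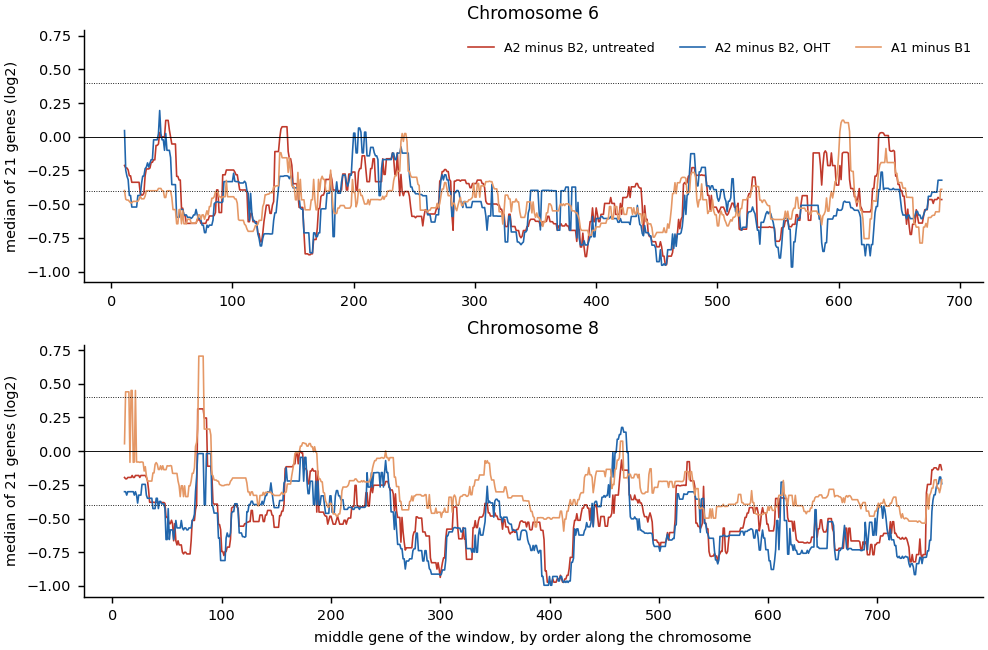
Running median of 21 neighbouring genes along chromosomes 6 and 8, by gene order, for A2 minus B2 untreated, A2 minus B2 with OHT and A1 minus B1, with dotted lines at 0.4 either way. The untreated and OHT lines lie mostly below 0. They part over some stretches of chromosome 6, as at gene 141 in order (0.07 untreated, -0.29 with OHT). On chromosome 8 the wild type line lies above them along most of the chromosome.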

How the data were processed

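Cy3-labelled total RNA of 8 samples went onto 1 array each, per the labels. Agilent Feature Extraction 11.5.1.1 (array design 028005) gave the deposited processed intensity of each spot, per the file headers: background-subtracted and not scaled between arrays. Deposited median signal and local background intensity entered an alternative, and the other columns used are flags of 0 or 1. A deposited series table of log2 values was not used here, and its 8 columns stay out. The authors' own test was not used here.

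From 62976 spots an array, 59305 were no controls, for 55681 probes. Control spots, outlier flags and dark areas (local median over 15 by 15 spots below -0.5, log2) were left out, and spots of a probe were averaged. Each array's 75th percentile was taken off its log2 values. RefSeq accessions (GRCm38.p6) named 28026 probes of 21154 genes, and 27655 probes stayed unnamed. Tested genes were well above background in 1 or both labelled knockout pools (on both arrays of the pool) and outside dark areas on all 4. The brightest probe of a gene was kept. Of 37 named genes with several bright probes, 3 (Itgam, Pes1, Stard4) had probes of opposite sign.

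The test was limma 3.58.1 in R 4.3.3 (lmFit, eBayes with trend and robust) on all 8 arrays with pool and treatment as terms within each genotype, which leaves 2 residual degrees of freedom, adjusted over 14527 genes at 0.05, two-sided. Tables were made with Python 3.11.15, pandas 2.3.3 and numpy 2.4.6, and figures with matplotlib 3.10.9. The fit was tested on simulated data. Where a pool was below background on both arrays, a fold is a bound: per array its own signal, or that of the dimmest detected probe if higher, stands in for it. Such bounds hold for the processing described here and can be smaller in the alternatives.

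Named by rule were Erf and the RAS genes, the 12 largest differences each way, up to 4 members of each of 31 lists and of the longest window runs, and the stem cell markers. Other list members and neighbours in the text were chosen after their values were seen. The members and lists were chosen with earlier results of these data known, and some genes are not reported here. Alternatives covered scaling, background, dark areas, dim probes, variance, arrays, block, weights, probe choice and leaving out each array. Promoters from RefSeq matched 11526 of the 14527 tested genes.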

Additional observations from a re-analysis of the deposited data

Results flagged for a closer look

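The pool difference of the labelled knockout (A2 minus B2) differed from that of the wild type (A1 minus B1) for 3331 genes by limma, a comparison that also carries the slide of B1. Among the named genes with the largest differences, this difference of differences was -3.78 for Fgf21, -3.25 for Nkx6-3, -2.78 for Cela1, -1.99 for Igsf21 and -1.68 for Erf. It was 0.80 for Pramel50, 0.96 for Tcstv3, 1.07 for BB287469, 1.09 for Pramel39, 1.48 for Pramel19 and 3.43 for Mal. The Pramel genes, Tcstv3 and BB287469 were high in both A pools, so here the wild type difference had the same sign and was smaller. They were picked for a large A2 minus B2, a term of this comparison, which favours such a result.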

How the results depend on the processing

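The count of 7337 genes called between A2 and B2 fell to 3532 without the treatment block and ran from 4883 to 6057 when 1 labelled knockout array was left out, lowest without either OHT array (the lone array of that treatment is then assumed to vary like the others). The 2119 genes called at least 2-fold became 1004 with normexp background correction and quantile normalization. The difference of pool differences was less stable: its 3331 genes became 2129 with no dark areas left out, 10 without the treatment block, 0 with plain empirical Bayes (4720 at an unadjusted p below 0.05), and 1480 to 2896 with 1 array left out. The higher share of these calls was 45.4%, 58.9% with quantile normalization and 60.9% with normexp. The wild type count of 4728 became 2451 with plain empirical Bayes and 1093 without the block. The chromosome 6 median moved from -0.48 to -0.40 with quantile normalization, -0.33 with normexp, -0.35 with no filter on dim probes, -0.52 over genes well above background on all 8 arrays, and -0.51 without an untreated array. That of chromosome 8 moved from -0.52 to -0.44, -0.34 and -0.46 in the first 3 of these. Stard4 turned to -0.41 with dark areas widened by 5 spots, an alternative added after seeing the data. Of 146 named genes, 120 kept their direction and call in every setting that kept all arrays and tested them. The causes were not tested. No paired analysis was possible because the replicate number, which would form the pairs, is itself the pool compared. Arrays of the pools were matched by treatment instead.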

Other observations

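Further gene groups were measured, beside 19.4% higher and 31.1% lower among all genes. Of 22 tested interferon response genes 8 were higher and 8 lower in A2. The interferon-induced GTPase gene Gbp2 read 0.81 and 1.70 in A2 and -2.72 and -2.48 in B2 (3.86 ± 0.20, limma adjusted p 1.25e-05), and Oasl1 was lower by 2.66 on the log2 scale (adjusted p 3.17e-05). Of 27 p53 target and stress genes 14 were higher and 3 lower (median 0.41), with the kinase gene Plk2 at 2.38 ± 0.17 and the stress pseudokinase gene Trib3 at -2.14 ± 0.21 (adjusted p 5.85e-05 and 0.00236). Hox genes were higher for 5 of 18 and lower for 0, with Hoxb9 at 1.74 ± 0.22 (adjusted p 0.000604). Of 18 MHC class I genes 6 were higher and 5 lower, of 22 cholesterol synthesis genes 1 and 7, of 19 cell cycle inhibitors and G1 cyclins 5 and 8, of 20 FGF ligands and receptors 6 and 6, of 21 piRNA and germline genes 9 and 4, and of the 15 X-linked dosage and Y-linked genes 3 and 6. Of the protocadherin clusters 2 genes were tested and 0 were called by limma (0.71 and 0.06).

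The letters TATAAA, searched on both strands between 250 bases before and 50 after the start, stood in 146 of 868 promoters of genes called at least 2-fold higher in A2 (16.8%), in 81 of 738 of those lower and in 10.2% of all tested genes (13.6% of all 32851 promoters of the table). The ETS core letters CCGGAAG, also on both strands, stood in 5.65% of the promoters of the higher genes, 9.89% of the lower and 17.4% of all tested genes (8.86% of all promoters). Both motifs were chosen after values were seen, and a match describes the letters of the window only.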
